A study of Mus musculus with 6 samples.

Results

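The Wnt signalling genes of the embryonic mouse heart were followed across 6 arrays: the secreted ligands, their receptors, the secreted inhibitors, the cytoplasmic relay proteins and the TCF/LEF transcription factors. Members were taken by gene symbol from the probe sets that the platform annotation assigns to exactly 1 gene. They comprise every symbol that begins with Wnt, Fzd, Sfrp, Dkk or Dvl followed by a digit, together with Lrp5, Lrp6, Ctnnb1, Axin1, Axin2, Lef1, Tcf7l1, Tcf7l2, Frzb, Apc, Ror1 and Ror2. Tcf7, which the same rule lists, is not analysed here because no single-gene probe set carried its symbol. This gave 53 genes out of 18193 named genes, and where a gene had several such probe sets the brightest on average stood for it. The rule itself uses names and mean signal only, but the members were chosen with earlier results of these data known. A total of 42 members lay above a filter on low signals, a mean log2 signal of 5.90, and were tested, and 11 lay below it.

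Hearts were taken from C57BL/6 embryos at stage E12.5. By label, 3 arrays hold wildtype and 3 hold Rhau KO hearts, the latter described as carrying a deletion of Rhau. Rhau is another name of Dhx36, a DEAH-box RNA helicase that unwinds G-quadruplexes, structures of stacked guanines in RNA and DNA. The labels and series text give no promoter, Cre driver, deleted exon or treatment, and nothing beyond the Rhau genotype separates the groups there. They also do not say whether an array holds RNA of 1 embryo or of several. The p-values therefore measure the spread between arrays.

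Wnt proteins are secreted lipid-modified ligands that bind Frizzled receptors. Together with the co-receptors Lrp5 and Lrp6 this stops the destruction complex of Axin and Apc from degrading beta-catenin, which then enters the nucleus and activates genes with TCF/LEF factors. Other Wnt signals run through Frizzled and Ror receptors without beta-catenin and shape cell polarity and movement. In the developing heart both branches act in a stage-dependent way, in the growth of the second heart field, the outflow tract, the valves and the ventricular wall. Secreted Frizzled-related proteins bind Wnt ligands, and most Dickkopf proteins block Lrp5 and Lrp6.

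Several features of the arrays touch every direction given below. Dhx36 itself read 8.99, 8.88 and 8.71 (log2 signal) under the wildtype label and, higher, 10.10, 10.48 and 10.23 under the other, and its other probe sets differed by 1.10 and 0.90 the same way. The targeted transcript thus ran against the label, and whether these probe sets lie in a deleted part is not given. Directions are therefore those of the labels as deposited, Rhau KO minus wildtype. Whether the labels of the groups were exchanged was not tested, and an exchange would reverse every direction below. Nkx2-5, a cardiac homeobox gene, differed by -1.29 (SE 0.058). The mean signal of Eif2s3y, Kdm5d and Uty, which lie on the Y chromosome, relative to the array where it was highest, was 1.23%, 2.04% and 39.3% in wildtype replicates 1 to 3 and 59.6%, 82.8% and 100% in Rhau KO replicates 1 to 3. Xist signal, made by the inactive X chromosome of female cells, ran the other way, from 100% to 77.2% in the wildtype group and from 61.1% to 0.232% in the other. Wildtype replicate 3 and Rhau KO replicates 1 and 2 thus carried both. Y-linked signal was higher in every Rhau KO array than in any wildtype array, so sex and genotype cannot be fully told apart here. Each called member is also given from a fit that includes this Y-linked signal as a covariate. Heart muscle markers were present on every array, with all 8 of 8 cardiomyocyte markers above the filter and Tnnt2 at a mean log2 signal of 15.1 under the wildtype label and 15.0 under the Rhau KO label.

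Of the 42 tested members, 3 rose and 8 fell in Rhau KO relative to wildtype by label, and 31 did not pass (adjusted p below 0.05, limma). The higher members were the ligand gene Wnt4, the receptor gene Fzd1 and the transcription factor gene Lef1. The lower members were the ligand genes Wnt2, Wnt9a and Wnt11, the receptor genes Fzd7, Fzd5 and Fzd2, and the inhibitor genes Dkk3 and Sfrp1. These 11 calls are 26.2% of the members, where 19.0% of all 12416 tested genes were called. The lower members made up 19.0%, against 10.8% of all genes, and the higher members 7.14%, against 8.20%. The median difference over the 42 members was -0.02, close to the 0.01 over all tested genes. Array groups did not overlap for 22 members, 52.4% of those tested, against 37.1% of all genes. In bulk tissue, fewer cells of a type and less RNA per cell cannot be told apart.

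**Figure D1:**
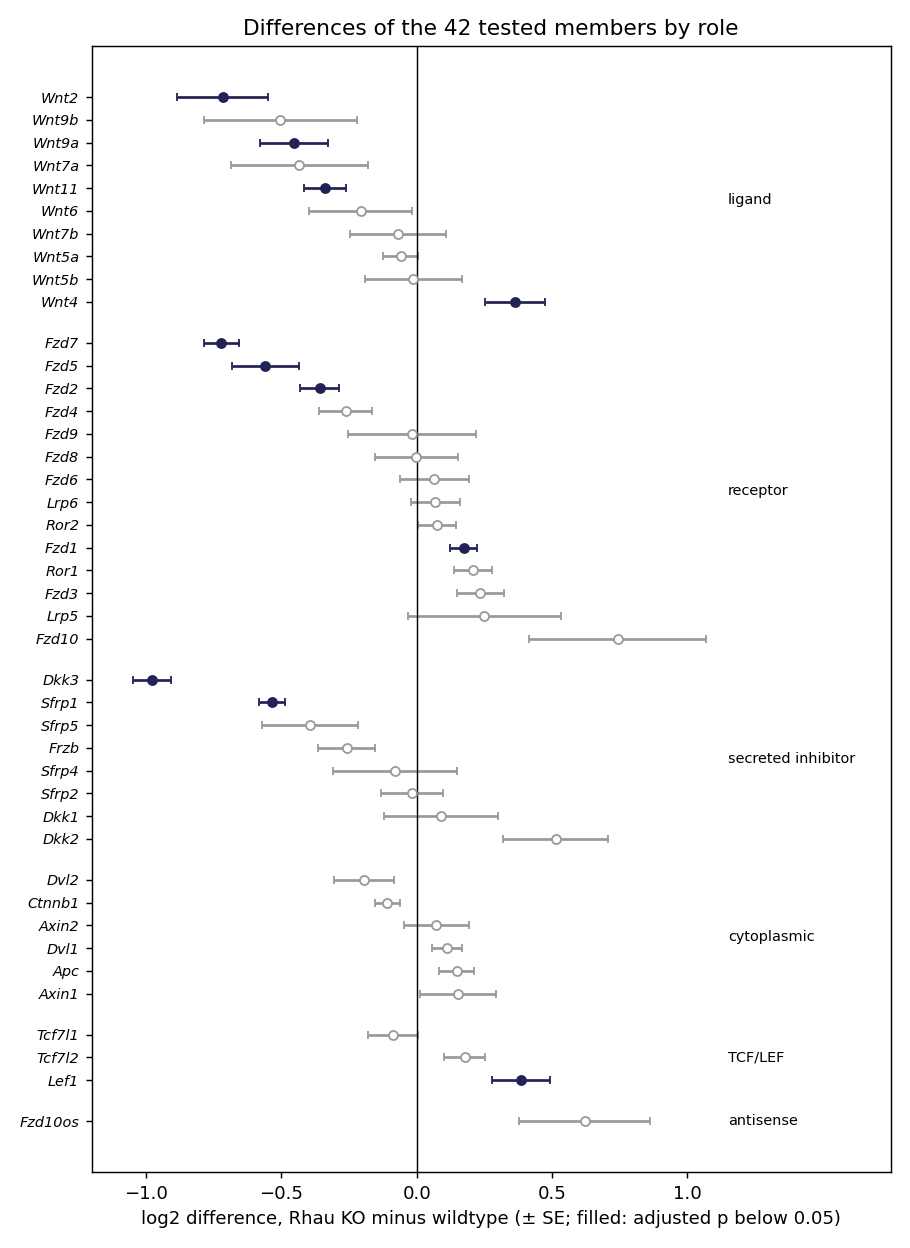
Log2 difference of each of the 42 tested members, Rhau KO minus wildtype, with its standard error, ordered by size within each role. Filled points had an adjusted p below 0.05. The filled points are 8 to the left of 0 and 3 to the right, and no cytoplasmic relay gene is filled.

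Calls differed in how far they rested on single arrays. Dkk3, Sfrp1, Fzd7 and Fzd2 kept their call in all 6 fits that left out 1 array. Wnt2, Wnt11 and Fzd5 lost it only without wildtype replicate 2, and Lef1, Wnt9a, Wnt4 and Fzd1 lost it in 4 or 5 of the 6 fits. With the Y-linked covariate only Dkk3 and Sfrp1 were called among the members, both lower, in a fit that called 1.43% of all genes (0.370% higher and 1.06% lower). A fit of the 3 arrays that carried both Xist and Y-linked signal sets 1 wildtype array against 2 Rhau KO arrays, and the lone array is assumed to vary like the others, so it is given as a description. It called Fzd7, Dkk3 and Sfrp1 lower, where 6.01% of all genes were called (2.40% higher and 3.61% lower). When every probe set of a gene was averaged, Wnt2, Wnt11, Dkk3 and Sfrp1 were called lower, where 12.4% of genes were called (5.27% higher and 7.14% lower). Wnt2 and Wnt11 have only 1 probe set each, so averaging could not change their differences, and only Dkk3 and Sfrp1 were put to this check. The median SE over the tested members was 0.25 in the covariate fit and 0.11 without the covariate, so the same difference is measured less precisely there. The sign of the difference was the same in both fits for 35 of the 42 members, the 11 called ones included.

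**Figure D2:**
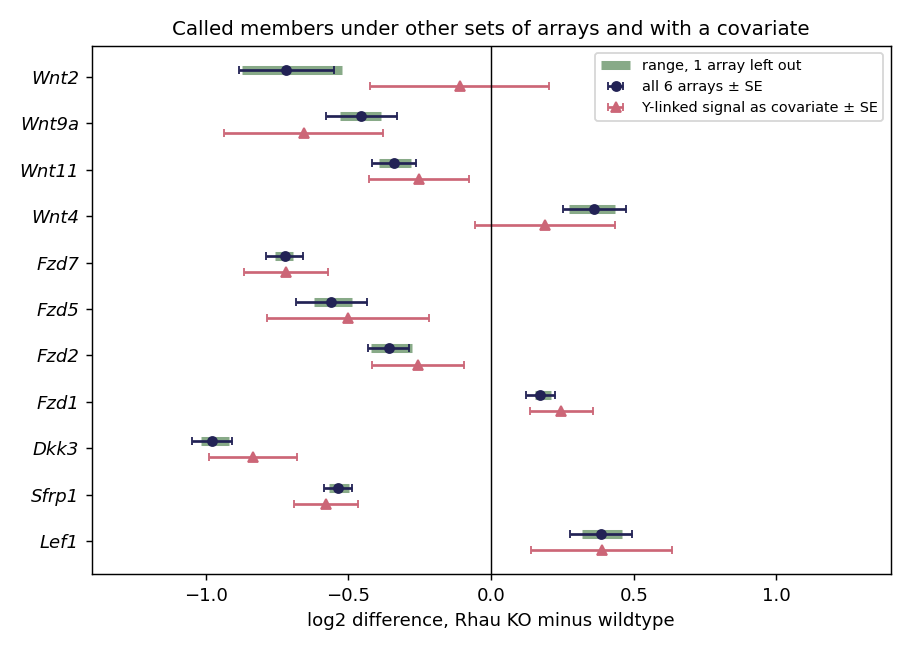
Log2 difference of the 11 called members on all 6 arrays with its standard error, the range over the 6 fits that leave out 1 array, and the difference with Y-linked signal as a covariate with its standard error. Dkk3, Sfrp1 and Fzd7 lie at similar values in all of these, while Wnt2 moves from -0.72 to -0.11 with the covariate.

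Among the ligands, 10 of 19 were tested, of which 1 rose and 3 fell. Wnt2, a ligand that acts through beta-catenin at the inflow side of the developing heart, read 8.54, 8.74 and 8.55 in the arrays labelled wildtype and 8.20, 7.97 and 7.50 in those labelled Rhau KO. The groups did not overlap, and the Rhau KO arrays were spread more widely, with replicate 3 the lowest. Wnt2 fell 1.64-fold, a difference of -0.72 (SE 0.17, adjusted p = 0.0139). Its value was -0.65 without wildtype replicate 2, where the call was lost, and -0.11 (SE 0.31) with the Y-linked covariate. The call was also lost with eBayes without trend.

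Wnt11, which signals mostly without beta-catenin and is needed for outflow tract and ventricular wall organisation, read 9.77, 9.99 and 9.86 under the wildtype label. Under the Rhau KO label it read 9.58, 9.52 and 9.49, below every wildtype array. It fell 1.27-fold, by -0.34 (SE 0.077, adjusted p = 0.0123), and stood at -0.28 without wildtype replicate 2, where the call was lost, and at -0.25 with the Y-linked covariate. Wnt9a, a ligand known from joint and skeletal development, read 8.17, 7.9998 and 8.29 against 7.71, 7.66 and 7.73. The Rhau KO arrays lay close together and below the wildtype arrays. Wnt9a fell 1.37-fold, by -0.45 (SE 0.13, adjusted p = 0.0299). The call was lost without wildtype replicate 1 or 3 or without any 1 of the Rhau KO replicates, with values between -0.47 and -0.39 in those fits, and it stood at -0.66 with the covariate. Its other probe set, below the filter, pointed up at 0.20, and with both averaged Wnt9a stood at -0.13 (SE 0.20) without a call. The call was also lost without the filter.

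Wnt4, a ligand required in kidney and gonad development and also made by endocardium, was the only ligand called higher. It read 8.32, 8.35 and 8.26 in the wildtype arrays and 8.53, 8.64 and 8.84 in the Rhau KO arrays. Here too the groups were apart, and the wildtype arrays were tightly spaced. Wnt4 rose 1.29-fold, by 0.36 (SE 0.11), with an adjusted p of 0.0441 that lies near the threshold. The call was lost without any 1 of the wildtype replicates or without Rhau KO replicate 2 or 3, with values from 0.27 to 0.38. In all, 13 of the 19 alternatives ended it, among them quantile normalization, median centring, no filter, averaged probe sets, eBayes without trend and the replicate block. With the Y-linked covariate Wnt4 stood at 0.19 (SE 0.25). Its other probe set above the filter differed by 0.24 without a call.

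The other 6 tested ligands did not pass. Wnt5a, the main ligand of Ror receptors, read 11.04, 11.10 and 10.89 in the wildtype arrays and 10.98, 10.95 and 10.92 in the Rhau KO arrays on its brightest probe set, a difference of -0.06. The groups overlapped there. Its 3 dimmer probe sets pointed up, by 0.27, 0.35 and 0.44, each with non-overlapping groups and none with a call. Wnt9b, a ligand known from kidney development, differed by -0.50 (SE 0.28), and Wnt7a by -0.43 (SE 0.25), both with overlapping groups and signals not far above the filter. Wnt6 differed by -0.21, Wnt7b by -0.07 and Wnt5b by -0.01. The remaining 9 ligands lay below the filter: Wnt1, Wnt2b, Wnt3, Wnt3a, Wnt8a, Wnt8b, Wnt10a, Wnt10b and Wnt16. Wnt10b had the highest mean of these, 5.66, and its arrays ran from 4.33 to 6.42. The deposited values carry no detection calls, so signals this low do not show whether these ligands are made in the heart.

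**Figure D3:**
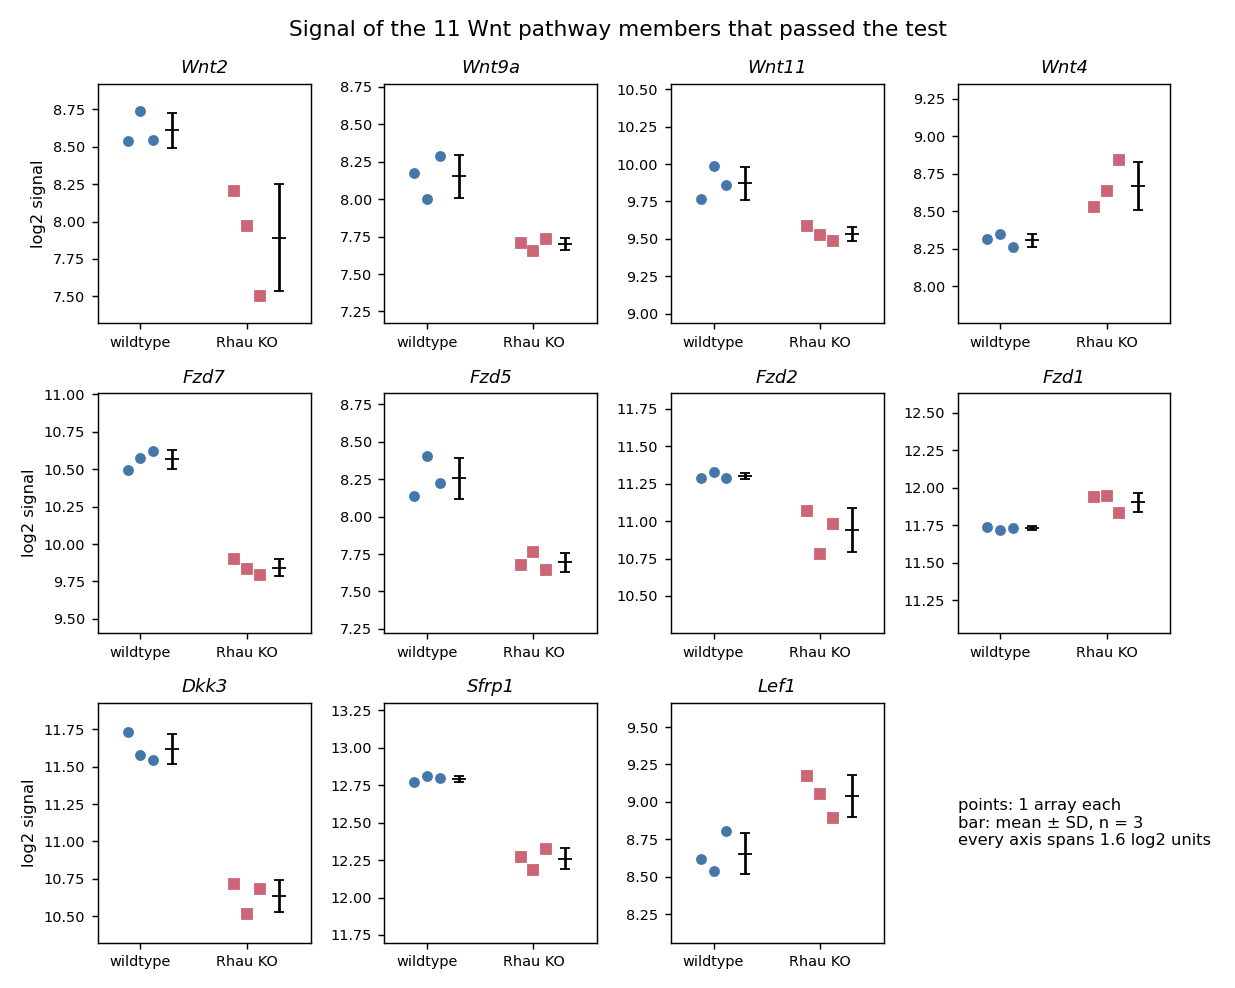
Log2 signal of the 11 called members on each array, 3 labelled wildtype and 3 labelled Rhau KO, with the mean and SD of each group; every vertical axis spans the same number of log2 units. In all 11 panels the groups do not overlap, with the widest gap for Dkk3 and a narrow one for Fzd1.

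All 14 receptor and co-receptor genes were tested, of which 1 rose and 3 fell. Fzd7, a Frizzled receptor used by both branches of the pathway, read 10.50, 10.58 and 10.62 in the arrays labelled wildtype and 9.90, 9.83 and 9.79 in those labelled Rhau KO. Each group spanned far less than the gap between them. Fzd7 fell 1.65-fold, by -0.72 (SE 0.064, adjusted p = 4.50e-05). The value lay between -0.76 and -0.70 whichever array was left out and was -0.72 with the Y-linked covariate (adjusted p = 0.0501 there). Its only other probe set was far below the filter, and with all probe sets averaged the difference was -0.46 without a call.

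Fzd5, a receptor known for its part in blood vessel and eye development, read 8.14, 8.40 and 8.22 against 7.68, 7.77 and 7.64. All Rhau KO arrays lay below all wildtype arrays. Fzd5 fell 1.47-fold, by -0.56 (SE 0.12, adjusted p = 0.0106), and stood at -0.49 without wildtype replicate 2, where the call was lost. It stood at -0.50 (SE 0.28) with the covariate, and at -0.96 (SE 0.33) without a call when averaged with its other probe set, which lay below the filter at -1.36. Fzd2, a receptor that takes up Wnt5a signals, read 11.29, 11.33 and 11.29 in the wildtype arrays and 11.07, 10.78 and 10.98 in the Rhau KO arrays. The wildtype arrays were nearly equal and above the Rhau KO arrays. Fzd2 fell 1.28-fold, by -0.36 (SE 0.072, adjusted p = 0.00622). Its probe sets did not all move. A dimmer probe set, marked as shared, differed by -0.24, with a call when every probe set was tested on its own. The dimmest, not so marked, differed by 0.01 without a call. With all its probe sets averaged, Fzd2 stood at -0.19 without a call, and with the covariate at -0.26 (SE 0.16).

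Fzd1, a receptor of the same subgroup as Fzd2 and Fzd7, moved the other way. It read 11.74, 11.72 and 11.73 in the wildtype arrays and 11.94, 11.94 and 11.83 in the Rhau KO arrays. The groups did not overlap, but the difference was small, 0.17 (SE 0.050) or 1.13-fold (adjusted p = 0.0347). The call was lost without any 1 of the wildtype replicates or without Rhau KO replicate 1 or 2, at values from 0.15 to 0.18, and it was lost with median centring at 0.10, with averaged probe sets at 0.15 and with eBayes without trend. The value with the covariate was 0.25 (SE 0.11). Thus among these related receptor genes Fzd7 and Fzd2 fell and Fzd1 rose under the deposited scaling.

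The other 10 receptor genes did not pass, with differences from -0.26 to 0.74. Fzd4, a receptor of blood vessel cells, differed by -0.26 (adjusted p = 0.0836) on its brightest probe set, at 8.92, 9.09 and 8.86 against 8.76, 8.63 and 8.69. The groups did not overlap. A dimmer Fzd4 probe set differed by -0.68 and passed when every probe set was tested on its own (adjusted p = 0.00718), a fit that called 14.6% of all probe sets (6.80% higher and 7.84% lower). Ror1, a receptor tyrosine kinase for Wnt5a, read 10.02, 10.06 and 9.99 against 10.31, 10.28 and 10.11, a difference of 0.21 (adjusted p = 0.0669). Its groups did not overlap, whereas those of Ror2 did, at a difference of 0.08. Fzd3, known from axon guidance and planar polarity, stood at 0.24 on its brightest probe set and at -0.30, -0.41 and -0.17 on the others above the filter, none with a call.

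The co-receptor genes Lrp5 and Lrp6 differed by 0.25 (SE 0.28) and 0.07 (SE 0.092), with overlapping groups. Lrp5 had a mean of 5.90, only just above the filter. Fzd6, Fzd8 and Fzd9 differed by 0.06, -0.00207 and -0.02. Fzd10 differed by 0.74 (SE 0.33, adjusted p = 0.144). It read 5.47, 6.71 and 5.85 in the wildtype arrays and 6.39, 7.03 and 6.84 in the Rhau KO arrays, so the groups overlapped. Fzd10os, whose symbol marks a transcript of the strand opposite Fzd10, read 5.99, 5.63 and 6.01 against 6.49, 6.37 and 6.63, without overlap, a difference of 0.62 (adjusted p = 0.101). Both transcripts of this locus lay just above the filter.

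The secreted inhibitors had 8 of 9 members tested, of which 2 fell and 0 rose. Both were called in every alternative run, 19 each, some of which leave a member's difference unchanged by construction. Dkk3, a divergent Dickkopf protein that is not a typical blocker of Lrp5 and Lrp6, showed the largest difference among the called members. It read 11.73, 11.58 and 11.55 in the wildtype arrays and 10.72, 10.52 and 10.68 in the Rhau KO arrays. The gap between the groups was several times the spread within either. Dkk3 fell 1.97-fold, by -0.98 (SE 0.070, adjusted p = 9.96e-06). The other Dkk3 probe set fell by 0.75 on the log2 scale, from 10.73 to 9.98, also with a call, and the value with the Y-linked covariate was -0.83 (SE 0.15, adjusted p = 0.0315).

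Sfrp1, which binds Wnt ligands outside the cell, read 12.77, 12.81 and 12.80 in the wildtype arrays and 12.27, 12.18 and 12.32 in the Rhau KO arrays. The wildtype arrays were nearly equal, and all lay above the Rhau KO arrays. Sfrp1 fell 1.45-fold, by -0.54 (SE 0.049, adjusted p = 5.25e-05), and stood at -0.58 with the covariate (SE 0.11, adjusted p = 0.0425). A further Sfrp1 probe set fell by 0.44 on the log2 scale (adjusted p = 8.09e-04 among all probe sets), but the other 3 differed by -0.12, -0.09 and -0.16 without a call. With all 5 averaged the difference was -0.27, still called. The size of the Sfrp1 decrease therefore depends on the probe set, while the sign does not.

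The other tested inhibitor genes did not pass. Dkk2, a Dickkopf protein that can act on Lrp6 either way, read 6.61, 6.84 and 6.94 in the wildtype arrays and 7.34, 7.56 and 7.03 in the Rhau KO arrays. Without overlap between groups, the difference was 0.51 (SE 0.19, adjusted p = 0.0929). Frzb, also called Sfrp3, differed by -0.26 (adjusted p = 0.112) and Sfrp5 by -0.40 (adjusted p = 0.148), both without overlap. The dimmer Frzb probe set pointed up, at 0.17. Sfrp2 read 11.89, 12.02 and 12.01 against 11.66, 12.24 and 11.96, a difference of -0.02. Its Rhau KO arrays lay on both sides of the wildtype arrays. Dkk1 and Sfrp4 differed by 0.09 and -0.08, and Dkk4 lay below the filter.

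No cytoplasmic relay gene among the members passed: 0 of 6 tested in limma, with 2 at an unadjusted p below 0.05. Kinase genes of the destruction complex and its partners lay outside the member rule. In the same limma fit Gsk3b (-0.23, adjusted p = 0.0155) and Gsk3a (-0.24, adjusted p = 0.0334) were called lower. Csnk1a1 was called higher (0.14, adjusted p = 0.0412), and Csnk1e and Csnk1g1 were not called. With the Y-linked covariate Gsk3b stood at -0.32, Gsk3a at -0.10 and Csnk1a1 at 0.19, none with a call. Fits with 1 array left out are not given for these kinase genes. Ctnnb1, which encodes beta-catenin, read 14.17, 14.13 and 14.17 in the wildtype arrays and 14.09, 13.97 and 14.09 in the Rhau KO arrays on its brightest probe set. The arrays of the groups were apart, and the difference was -0.11 (SE 0.047, adjusted p = 0.141), while its other probe sets differed by 0.01 and 0.10. This signal is high, and saturation was not tested. Apc, a scaffold of the destruction complex, read 10.51, 10.61 and 10.62 against 10.74, 10.63 and 10.81, a difference of 0.15 (adjusted p = 0.144), with the groups just apart. Dvl1 and Dvl2, which relay the signal from Frizzled, differed by 0.11 and -0.20, without overlap and without a call, and Dvl3 lay below the filter.

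Axin2 is both a part of the destruction complex and a widely used readout of beta-catenin signalling. It read 8.20, 8.02 and 8.09 in the wildtype arrays and 8.03, 8.21 and 8.28 in the Rhau KO arrays. The groups overlapped, and the difference was 0.07 (SE 0.12, adjusted p = 0.725). Axin1, its relative without such feedback, differed by 0.15 (SE 0.14). A missed threshold does not show that these genes were equal, only that a difference was not detected with 3 arrays a group.

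Among the TCF/LEF factors 1 of 3 rose. Lef1, a factor of valve and mesenchyme development and itself a reported target of the pathway, read 8.62, 8.54 and 8.80 in the wildtype arrays and 9.18, 9.05 and 8.89 in the Rhau KO arrays. All Rhau KO arrays lay above all wildtype arrays, but wildtype replicate 3 and Rhau KO replicate 3 lay close to each other. Lef1 rose 1.31-fold, by 0.39 (SE 0.11, adjusted p = 0.0316). The call was lost without wildtype replicate 1 or 2 or Rhau KO replicate 1 or 2, at values from 0.32 to 0.38, with median centring, with eBayes without trend and with the replicate block, and the covariate value was 0.39 (SE 0.25). Its dimmer probe set differed by 0.13, and the average of its probe sets by 0.26 without a call.

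Tcf7l2, the factor formerly named Tcf4, gave unequal answers by probe set. The brightest read 9.56, 9.51 and 9.62 against 9.83, 9.67 and 9.73, without overlap, a difference of 0.18 (adjusted p = 0.126). The next brightest, marked as shared between transcripts, rose by 0.60 from 8.78 to 9.37 and passed among all probe sets (adjusted p = 0.00324), and the third differed by 0.05. Tcf7l1, which mostly represses target genes, differed by -0.09 on its brightest probe set and by -0.29 on the other, without a call.

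**Figure D4:**
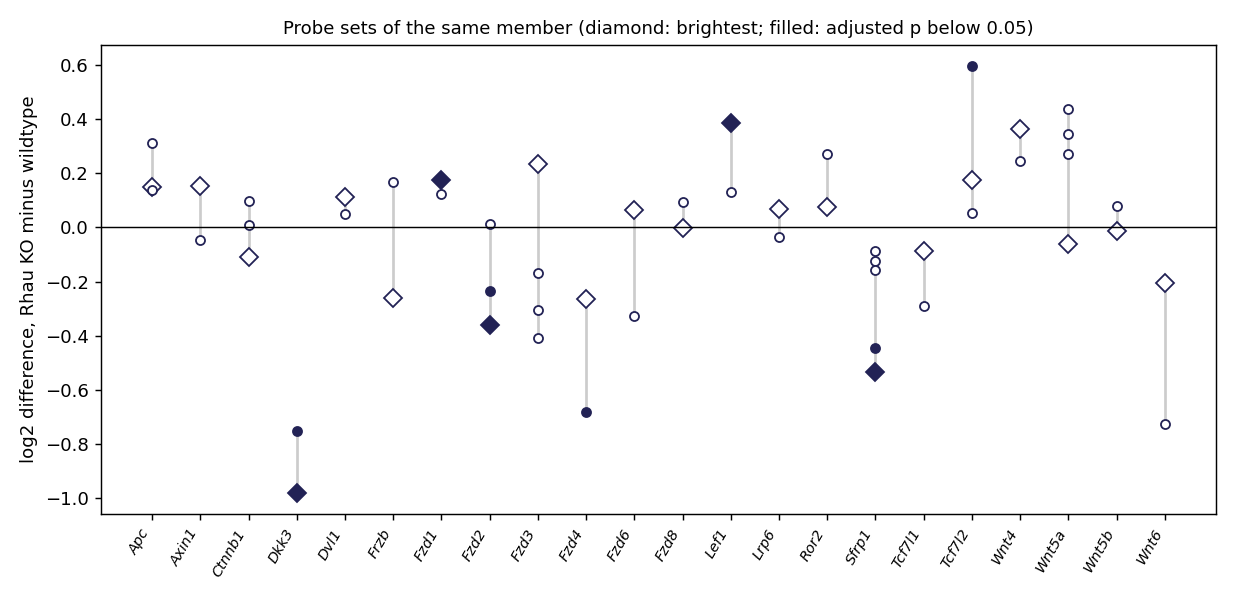
Log2 difference, Rhau KO minus wildtype, of every probe set above the filter for members with more than 1 such probe set; diamonds are the brightest probe set and filled symbols had an adjusted p below 0.05 among all probe sets. Dkk3 and Sfrp1 have more than 1 filled symbol and no probe set above 0, while Tcf7l2 and Fzd4 are filled only for a dimmer probe set.

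Promoter sequence was examined because Dhx36 acts on guanine-rich nucleic acid. The 250 bases before annotated transcript starts, from RefSeq promoters on GRCm38.p6, were available for 36 of the 53 members, as 44 windows. The motif searched was GGG repeated 4 times with 1 to 7 bases (N) between the runs, each run of 3 or more G, on either strand. The bases between runs could be any base, G included, so a long unbroken tract of G can count as several runs. It was found in 54.5% of the member windows, in 24.9% of the windows of all tested genes and in 16.7% of all 32851 windows. The median GC content was 68.6% in the member windows, 60% in those of tested genes and 52.4% in all. Such a match describes letters in the DNA and is not a measured structure.

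The upstream windows of 4 called members with this motif, chosen where the window ends at the outermost start of the gene, are shown to place the guanine runs of genes that fell beside those of genes that rose. Capitals mark the motif, as G runs or, where it lies on the opposite strand, as C runs. Each is written from 5′ to 3′ on the strand of the gene. Fzd7 and Fzd5 fell, and Lef1 and Wnt4 rose.
Fzd7 (chr1:59481897-59482146, plus strand): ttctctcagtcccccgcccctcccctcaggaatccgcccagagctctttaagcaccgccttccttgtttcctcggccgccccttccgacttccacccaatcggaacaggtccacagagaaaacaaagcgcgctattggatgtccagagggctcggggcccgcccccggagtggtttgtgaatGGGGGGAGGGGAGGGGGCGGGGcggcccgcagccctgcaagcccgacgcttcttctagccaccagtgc
Fzd5 (chr1:64737751-64738000, minus strand): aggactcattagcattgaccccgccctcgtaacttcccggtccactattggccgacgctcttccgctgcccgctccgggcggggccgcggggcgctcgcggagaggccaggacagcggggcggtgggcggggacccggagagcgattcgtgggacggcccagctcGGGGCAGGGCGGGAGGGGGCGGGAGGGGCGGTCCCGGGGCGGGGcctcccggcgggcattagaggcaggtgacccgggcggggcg
Lef1 (chr3:131110047-131110296, plus strand): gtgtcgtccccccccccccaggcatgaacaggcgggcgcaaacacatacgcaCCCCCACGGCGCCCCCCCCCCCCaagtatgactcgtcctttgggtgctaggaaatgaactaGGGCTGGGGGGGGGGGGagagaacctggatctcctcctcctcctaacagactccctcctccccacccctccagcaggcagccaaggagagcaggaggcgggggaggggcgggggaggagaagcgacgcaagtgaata
Wnt4 (chr4:137277385-137277634, plus strand): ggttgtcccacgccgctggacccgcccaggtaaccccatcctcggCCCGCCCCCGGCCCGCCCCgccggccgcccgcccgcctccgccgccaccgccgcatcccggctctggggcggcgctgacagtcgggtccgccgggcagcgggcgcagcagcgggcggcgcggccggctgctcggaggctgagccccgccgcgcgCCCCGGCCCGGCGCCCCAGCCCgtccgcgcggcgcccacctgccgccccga
In Fzd7 and Fzd5 the marked stretch lies on the printed strand, from position -68 to -47 and from -85 to -42, counted from the start of the transcript. Wnt4 carries it on the opposite strand and Lef1 on both. In Lef1 each marked stretch matches only because a single long tract counts as several runs. The motif thus occurs before genes of either direction. TCF/LEF core sites (CTTTGAA and CTTTGAT, with CTTTGTA and CTTTGTT as further forms, on either strand, which may overlap the guanine-run motif) were found in 13.6% of member windows, 10.3% of tested-gene windows and 14.8% of all windows. Among the printed windows only that of Fzd7 holds one, as AACAAAG beginning at position -130.

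Other genes of the pathway were read from 5 lists chosen with earlier results of these data known. Counting each gene once and leaving out the members above, 73 genes were tested, of which 10 rose and 11 fell. That is 28.8%, against 19.0% of all genes, with a median difference of -0.01. By direction it is 13.7% higher and 15.1% lower, against 8.20% and 10.8% of all genes. The counts of each list below are to be read beside these same shares of all genes. Of the 16 called genes named from these lists below, 8 kept their call whichever array was left out: Rspo3, Sost, Wls, Ep300, Cxxc5, Nfatc3, Mycn and Bmp4. With the Y-linked covariate 1 of the 73 was called, Mycn, at 1.26.

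Secretion factors and extracellular regulators had 3 members higher and 1 lower of 11 tested. Rspo3, an R-spondin that strengthens Wnt signals by protecting Frizzled receptors from removal, read 7.87, 8.60 and 8.14 in the wildtype arrays and 9.74, 9.53 and 9.59 in the Rhau KO arrays. The Rhau KO arrays lay close together and well above every wildtype array. Rspo3 rose 2.67-fold, by 1.42 (SE 0.16), and stood at 1.62 with the covariate (adjusted p = 0.0630 there), and its dimmer probe set rose by 0.999. Sost, an inhibitor best known from bone, read 8.35, 8.75 and 8.61 against 7.91, 7.06 and 7.25. It fell 2.24-fold, by -1.16 (SE 0.21), with non-overlapping groups, and stood at -0.68 with the covariate. Wls, the carrier that brings Wnt proteins to the cell surface, rose by 0.30 (SE 0.049), and its probe sets above the filter rose by 0.22 and 0.40 as well. Averaging in a Wls probe set far below the filter gave -0.13 without a call. Tpbg, a membrane protein that modulates Wnt receptors, rose by 0.36, with the call lost in 5 of the 6 fits with 1 array left out, at values from 0.32 to 0.38. A dimmer Tpbg probe set rose by 0.55.

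Receptor turnover and co-receptor genes had 1 member lower of 8 tested and 0 higher. Ryk, an atypical Wnt receptor, fell by 0.22 on the log2 scale, a call that was lost in each of the 6 fits with 1 array left out, at values from -0.25 to -0.19. Its dimmest probe set pointed up, at 0.22, and was the representative when probe sets marked as shared were left out. The destruction complex and beta-catenin partner genes had 3 higher and 5 lower of 26. Tle4, a corepressor of TCF factors, differed by 0.56 and Bcl9, a coactivator of beta-catenin, by 0.34. Both lost the call in 4 of 6 fits, at 0.41 to 0.55 for Tle4 and 0.28 to 0.35 for Bcl9, and a dimmer Bcl9 probe set pointed down, at -0.11. Ep300, a histone acetyltransferase, fell by 0.53 on the log2 scale and Cxxc5, an inhibitor of Dishevelled, by 0.46.

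Genes of planar polarity and beta-catenin-independent signalling had 2 higher and 1 lower of 17. The transcription factor gene Nfatc3 fell by 0.31 on the log2 scale. The kinase gene Camk2d rose by 0.31 and the polarity gene Prickle1 by 0.20. The Camk2d call was lost in 4 of 6 fits with 1 array left out, at 0.21 to 0.33, and the Prickle1 call in 5, at 0.16 to 0.22. Reported targets of Wnt and beta-catenin had 3 higher and 3 lower of 17, Lef1 and Axin2 included. Mycn, a growth-promoting transcription factor, read 10.19, 10.45 and 10.06 against 11.17, 11.01 and 10.85 and rose 1.71-fold, by 0.77. Its 2 brightest probe sets were both called, the dimmer of them at 0.56. Fgf9, a growth factor for heart muscle, rose by 0.49, with the call lost in 5 of 6 fits at 0.36 to 0.53. Bmp4 fell by 0.49 on the log2 scale and Tbx3, a factor of the conduction system, by 0.46, the latter at -0.35 and without a call once wildtype replicate 2 was left out. Targets on this list moved in both directions with a median of -0.01.

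**Figure D5:**
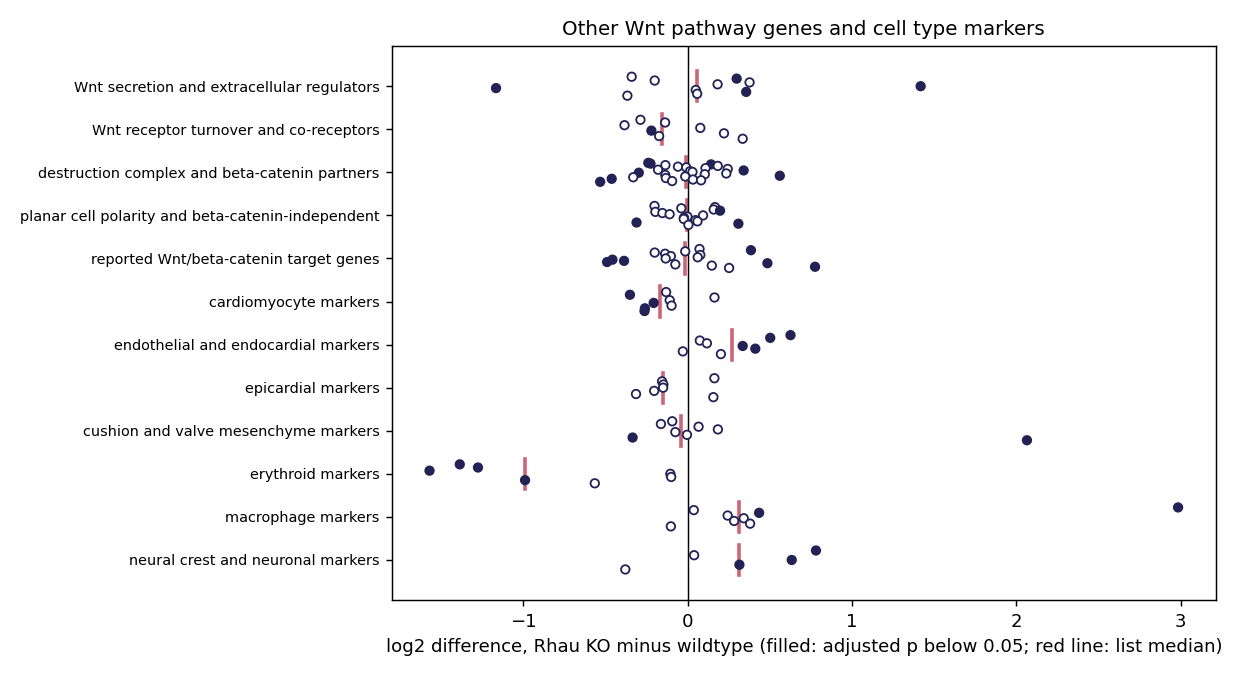
Log2 difference, Rhau KO minus wildtype, of each tested gene in 5 lists of other pathway genes and 7 lists of cell type markers; filled points had an adjusted p below 0.05 and the red line is the list median. Pathway lists have medians between -0.15 and 0.06, and the erythroid markers one of -0.99.

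Some markers of cell types that could carry these transcripts were called as well. Over all tested genes 19.0% were called, 8.20% higher and 10.8% lower. Endothelial and endocardial markers had 4 higher and 0 lower of 8 (Kdr 0.63, Cdh5 0.50, Npr3 0.41, Tie1 0.34), and their summed linear signal ran from 10462 to 11391 in the wildtype arrays and from 12224 to 13411 in the Rhau KO arrays. The Tie1 call was lost in 5 of 6 fits with 1 array left out, at 0.29 to 0.37. Flt1 at 0.20, Tek at 0.12, Pecam1 at 0.07 and Emcn at -0.03 were not called. Cardiomyocyte markers had 0 higher and 4 lower of 8, with Myh6 at -0.35 and a summed signal of 208493 to 218024 against 177138 to 207237. Of the 4 not called, Myh7 pointed up at 0.16, and Tnnt2, Actc1 and Myl2 stood at -0.13, -0.11 and -0.10. The Myl7 call (-0.21) was lost in 4 of 6 fits with 1 array left out, at -0.23 to -0.18, and the Ryr2 call (-0.26) in 1, without wildtype replicate 1, at -0.23. Erythroid markers had 0 higher and 4 lower of 7, with Epb42 at -1.57, and a summed signal of 65420 to 68336 against 53885 to 66222. The embryonic globins Hbb-y and Hba-x, which made up most of this sum, both differed by -0.10 and were not called.

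Epicardial markers, which mark the outer layer of the heart, had 0 called of 7, with a summed signal of 10640 to 12031 against 10015 to 10514. Aldh1a2 stood at -0.31 and Upk1b at -0.20, and Tcf21, Tbx18 and Upk3b also pointed down. Wt1 and Msln pointed up, both at 0.16. Cushion and valve mesenchyme markers had 1 higher and 1 lower of 8, Col2a1 at 2.06 and Prrx2 at -0.33, with sums of 11866 to 13492 against 11962 to 13076. Macrophage markers had 2 higher and 0 lower of 8, Lyz2 at 2.98 and Mrc1 at 0.43, with sums of 2226 to 2433 against 3249 to 3913. Most of the rise of the sum was Lyz2. The other 6 were not called, with Csf1r at 0.04, Cx3cr1 at -0.10 and the rest between 0.24 and 0.38. The Mrc1 call was lost in 3 of 6 fits, at 0.39 to 0.41. Neural crest and neuronal markers had 3 higher and 0 lower of 5, with Ednrb at 0.78, Elavl4 at 0.63 and Gap43 at 0.32. Sox10 at 0.04 and Tubb3 at -0.38 were not called. The sums were 2983 to 3119 against 4583 to 4833, and Ednrb, the brightest of these markers, made up most of them. The Elavl4 and Gap43 calls were lost in 5 of 6 fits each, at 0.51 to 0.67 and 0.27 to 0.34. No marker was at 0 on any array. The part of these cell types in the differences of the Wnt genes was not tested.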

How the data were processed

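Heart RNA for each of 6 arrays was amplified into biotin-labelled cRNA with an Affymetrix kit, per the labels' protocols. The deposited values are log2 signals, 1 per probe set and array; the authors used MAS5, per the submitters' processing notes, with its version not given in the sources used here. On the linear scale each array has a 2% trimmed mean of 500, so arrays had been scaled globally. Precision is limited by the 3 arrays a group.

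Of 45101 probe sets, 64 controls were left out; 34945 name 1 gene, 932 several and 9160 none. Entrez identifiers of 34741 were found in the RefSeq table (GRCm38.p6). Each gene took its probe set of highest mean, and genes in the lowest 40% of probe sets were not tested. The test was limma's (version 3.58.1, R 4.3.3; lmFit and eBayes with trend), two-sided, Benjamini-Hochberg over 12416 genes, threshold 0.05, and the procedure was tested on simulated data. Called members are named with all arrays. Further lists are named with at most 4 called members of largest difference, otherwise at most 2. Destruction complex kinases and some further cell type markers were added to show how far a list was of 1 direction. Members, lists and alternatives were chosen with earlier results of these data known. Tables and plots used Python 3.11.15, pandas 2.3.3 and matplotlib 3.10.9. Replicate numbers did not pair the arrays: same-numbered arrays deviated from their group means with correlations of -0.01, 0.04 and 0.01.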

Additional observations from a re-analysis of the deposited data

How the results depend on the processing

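A total of 19 alternatives were run. Pseudocounts of 1 and 64, the filter on the lowest 60% of probe sets, leaving out probe sets marked as shared and array weights kept all 11 called members. The stricter filter and the removal of shared probe sets left the differences of these 11 unchanged by construction. They could alter only the standard errors and adjusted p. Median centring kept 8 of the 11, with Fzd4 newly called lower, and gave 0 higher members (the median over all genes was then -0.06), with 532 genes higher and 1846 lower in all against 1018 and 1336, and 3 other pathway genes higher. Without a filter 6 other pathway genes were higher. Without probe sets marked as shared 7 other pathway genes were lower. The mean over a gene's probe sets gave 4 called members, 0 higher and 4 lower, 3 and 6 other pathway genes, and 608 and 824 genes in all. Of these members Wnt2 and Wnt11 have only 1 probe set each, so their differences could not change. eBayes without trend kept 7 of the 11 and none of the 3 higher ones; its 1 higher member was Fzd10os, a new call, with 5 higher other pathway genes, and 614 and 878 genes in all. The replicate block gave 1 higher member, Fzd1, and 8 lower members; the numbers do not pair the arrays. The Y-linked covariate gave 2 called members, 0 higher and 2 lower, 1 and 0 other pathway genes, and 46 and 132 genes in all. The 3 arrays that carried Xist as well as Y-linked signal, where 1 wildtype array is assumed to vary like the Rhau KO arrays, gave 3 called members, 0 higher and 3 lower (Fzd7, Dkk3 and Sfrp1), 3 and 5 other pathway genes, and 298 and 448 genes in all. With 1 array left out, 5 to 9 of the 11 were kept. New calls were Frzb and Fzd10 without wildtype replicate 2 and Ror1 without Rhau KO replicate 3. With these, the members called in such a fit numbered 7 to 10, higher members 0 to 3, lower members 6 to 7, other pathway genes 4 to 10 higher and 6 to 11 lower, and all genes 590 to 802 higher and 916 to 1206 lower. No called member changed sign in any alternative. Of 209 such values 151 kept the call and 58 lost it, and the kept ones include alternatives that leave the difference unchanged by construction. Among genes of the other lists Wls reversed to -0.13 with probe sets averaged and Ryk to 0.22 without probe sets marked as shared, both through dim probe sets that enter by construction. The cause of the other changes was not tested. Lrp5, Fzd10 and Fzd10os have signals close to the filter.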

Other observations

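Beyond the Wnt genes, the tested genes with a RefSeq upstream window can be read by the same guanine-run motif. Of 2863 tested genes with the motif in at least 1 window 21.6% were called (250 higher and 369 lower), and of 7124 without it 17.9% (558 higher and 714 lower). Among the tested Wnt members with a window, 5 of 16 with the motif and 3 of 12 without it were called. The difference between these shares was not tested.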
